A study of Homo sapiens with 16 samples.

Results

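The genes described here are 47 that license replication origins, build and run the replication fork and supply it with nucleotides, together with 4 regulators of entry into S phase. They were taken by symbol from a list and not by a cut on their values, though earlier results of these data were known. All 47 of 47 were found among the 60605 gene identifiers of the count tables. PRO-seq labels the RNA that engaged polymerases extend in isolated nuclei, and it was applied to LNCaP, an established androgen-sensitive human prostate cancer cell line. The study asked whether the androgen receptor blocker enzalutamide alters transcription after ionizing radiation (IR).

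Batch 1 held mock-treated LNCaP cells and cells given 6 Gy IR, with replicate numbers 1 and 2 in each group and a t1 and a t2 library under each number. Batch 2 held 4 groups of LNCaP cells with replicate numbers 3 and 4: DMSO vehicle for 90 min, vehicle with 6 Gy IR, 10 µM enzalutamide for 90 min, and 10 µM enzalutamide with 6 Gy IR. In the irradiated groups of batch 2 the dose was given 30 min into the treatment, and the cells were left for another 60 min. The timing in batch 1, the meaning of t1 and t2, and whether replicates came from separate cultures were not given in the sources used here, so p-values measure the spread between these samples only. All groups share 1 cell line, and no other line was analysed here.

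An origin is licensed in G1, when the origin recognition complex (ORC1 to ORC6) together with CDC6 and CDT1 loads the MCM2 to MCM7 helicase onto DNA, and geminin (GMNN) blocks CDT1 afterwards. The kinase CDC7 with its activator DBF4 then lets CDC45 and the GINS complex join the helicase, and polymerase alpha with primase starts each new strand. Ribonucleotide reductase (RRM1 with RRM2 or RRM2B), thymidylate synthase (TYMS) and thymidine kinase (TK1) supply deoxynucleotides, and E2F1 and cyclin E (CCNE1, CCNE2) drive many of these genes as cells enter S phase. RRM2B is a known p53 target, and p53 is active in LNCaP cells. PRO-seq reads polymerases on genes and not messenger RNA, and in bulk cells a changed share of S phase cells cannot be told apart from changed transcription per cell.

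Depth and sample identity were checked first. Library totals ran from 3438642 to 9363458 counts in batch 1 and from 10494563 to 19905824 in batch 2. Counts of single members in a sample, with t1 and t2 of a replicate summed, ran from 103 (GINS2) to 5735, with a median of 848.5. All members passed the filter on low counts in each comparison. The 10 LNCaP markers summed to between 3000 and 4010 CPM (counts relative to the library total after TMM scaling). The 4 leukocyte markers summed to 0.898 to 2.11 CPM, and MS4A1 was at 0 in at least 1 sample. Fibroblast markers summed to between 8.25 and 12.9 CPM, and basal epithelial markers to between 3.51 and 7.63 CPM. Endothelial markers were higher, at 15.5 to 36.6 CPM, of which VWF had 11.6 to 31.4 CPM. KLK3, the androgen-driven gene for prostate-specific antigen, lay between 135 and 181 CPM in batch 1 and between 5.28 and 17.1 CPM in batch 2. The tables were scaled separately and batch coincides with any difference in culture, so levels of the members are compared within a batch only.

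The t1 and t2 libraries of batch 1 differed in these genes, and in opposite directions in mock and irradiated cells. PRIM2, the large primase subunit and the longest member at 425.311 kb, had 75.0 and 98.8 CPM in the mock t1 libraries and 52.6 and 50.8 CPM in the mock t2 libraries. In irradiated cells PRIM2 had 58.4 and 62.5 CPM in t1 and 87.5 and 90.1 CPM in t2. So PRIM2 was lower in t2 without IR and higher in t2 with it, with no overlap. MCM4, a short helicase gene, did the reverse, with 91.9 and 70.3 CPM in mock t1, 115 and 96.6 in mock t2, 128 and 150 in irradiated t1, and 85.8 and 67.2 in irradiated t2. Of the 47 members, 18 followed the pattern of PRIM2 in both replicates and 9 that of MCM4. Across members, the log2 ratio of t2 to t1 and the log2 gene span had a Pearson correlation of -0.501 and -0.668 in the mock replicates and of 0.625 and 0.572 in the irradiated ones. This is a description over 47 genes that share their libraries. The 2 libraries of a replicate were therefore summed, and batch 1 calls are also given from t1 and from t2 alone. The sums weight t1 and t2 unequally. Library totals were 3438642 (t1) and 4584347 (t2) in mock replicate 1 and 5633290 and 3583636 in mock replicate 2. They were 7625459 and 4993789 in irradiated replicate 1 and 7488015 and 9363458 in irradiated replicate 2. Because the difference between t1 and t2 ran in opposite directions with and without IR, either set alone cannot tell it apart from IR.

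**Figure D1:**
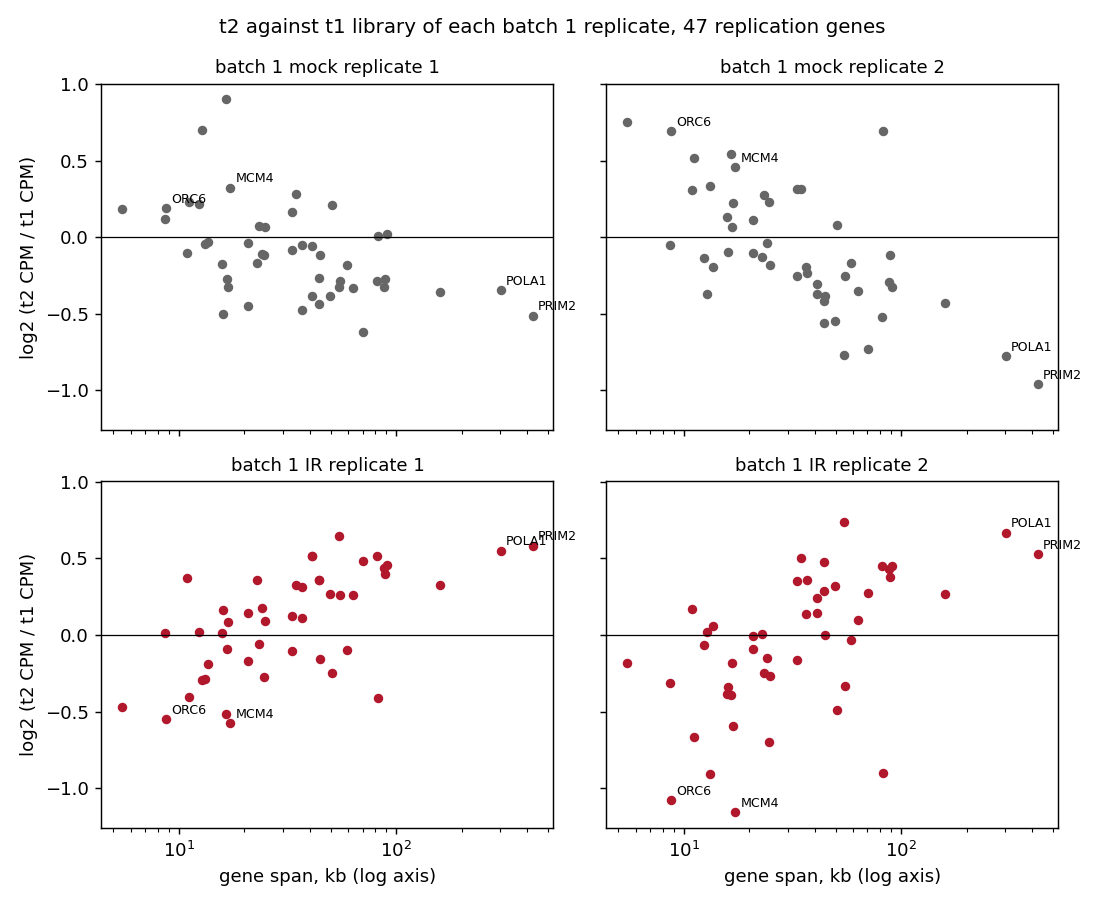
Log2 ratio of CPM in the t2 to the t1 library (y axis) against gene span in kb (x axis, log scale) for the 47 members, 1 panel for each batch 1 replicate and 1 point for each gene. Long genes such as PRIM2 and POLA1 lie below 0 in both mock replicates and above 0 in both irradiated replicates, and MCM4 and ORC6 lie on the other side.

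A small number of the 47 genes passed the test after IR, and TYMS and RRM2B had the largest rises. Both encode enzymes that make deoxynucleotides, and both were called in batch 1, under vehicle and under enzalutamide, a call being an adjusted p under 0.05 by edgeR's quasi-likelihood test over all genes. DBF4, the activator of the origin-firing kinase, was the 1 member that fell. With both batches in 1 fit and batch as a covariate, 10 of 47 members were called, 9 higher and 1 lower. Of all 29195 genes tested 4.05% were called, 2.39% higher and 1.66% lower. CDT1, MCM5, CDC45, GINS4, MCM10, E2F1 and UHRF1 rose beside TYMS and RRM2B. At an unadjusted p under 0.05, 21 members (44.7%) passed over both batches, where 16.1% of all genes did. The median log2 fold change of the members was 0.11, with 43 above 0, against -0.0245 over all genes, of which 44.9% were above 0. This fit holds the mock, IR, vehicle, and vehicle with IR samples, and its calls are therefore not independent of the comparisons within batches.

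The promoters of the 7 called members with an entry are shown because E2F factors are known to bind many replication promoters close to the start site. RefSeq (GRCh38.p14) gave a promoter for 40 of the 47 members, and in the 250 bases before the start each was searched on both strands for an E2F core (TTTCCCGC, TTTGGCGC, TTTCGCGC or TTTGCCGC). An E2F core was present in 13 of 40 members, or 32.5%, against 2.788% of 35116 promoters in the table, and the median GC content was 64.8% for members and 58.0% for all. Among the 7 called members with an entry, CDT1, TYMS, E2F1 and UHRF1 held a match, and 9 of the 33 members not called did. A p53 half-site was present in 5 of 40 members, 0 of them called, against 5.573% of all promoters, and the cell cycle homology element TTTGAA was present in 1 (RRM1), against 13.319%. MCM4, MCM5, GINS4, RPA2, RPA3, RRM2B and CCNE2 had no entry. A match is a description of letters and not a bound site. In the sequences below, given 5′ to 3′ along the gene's strand and ending 1 base before the start, capitals mark the E2F core. CDC45 and MCM10, which rose, and DBF4, which fell, hold none of the searched cores in this window. Near variants of the cores were not searched, such as tttggcgg in the CDC45 and CDT1 windows. The UHRF1 and CDC45 windows precede the RefSeq transcript start used here but lie inside the full span of the gene. Those spans are chr19:4903080-4962154 for UHRF1 and chr22:19479466-19520612 for CDC45.
TYMS promoter, chr18:657403-657652, plus strand: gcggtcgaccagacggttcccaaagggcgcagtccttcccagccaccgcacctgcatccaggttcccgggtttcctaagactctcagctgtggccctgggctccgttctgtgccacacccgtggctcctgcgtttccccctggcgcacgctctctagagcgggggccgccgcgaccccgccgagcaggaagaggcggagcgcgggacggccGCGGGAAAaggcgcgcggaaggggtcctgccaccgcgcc
E2F1 promoter, chr20:33686386-33686635, minus strand: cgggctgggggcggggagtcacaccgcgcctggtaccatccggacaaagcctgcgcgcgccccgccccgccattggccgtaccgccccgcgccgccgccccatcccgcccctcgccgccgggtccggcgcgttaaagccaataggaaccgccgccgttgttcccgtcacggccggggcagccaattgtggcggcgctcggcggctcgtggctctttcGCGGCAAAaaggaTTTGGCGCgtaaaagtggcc
CDT1 promoter, chr16:88803539-88803788, plus strand: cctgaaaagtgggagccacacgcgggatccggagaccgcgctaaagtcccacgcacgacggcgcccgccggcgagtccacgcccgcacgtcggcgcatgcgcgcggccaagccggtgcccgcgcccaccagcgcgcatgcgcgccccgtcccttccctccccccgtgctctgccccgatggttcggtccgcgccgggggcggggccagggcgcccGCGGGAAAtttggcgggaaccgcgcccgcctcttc
UHRF1 promoter, chr19:4909251-4909500, plus strand: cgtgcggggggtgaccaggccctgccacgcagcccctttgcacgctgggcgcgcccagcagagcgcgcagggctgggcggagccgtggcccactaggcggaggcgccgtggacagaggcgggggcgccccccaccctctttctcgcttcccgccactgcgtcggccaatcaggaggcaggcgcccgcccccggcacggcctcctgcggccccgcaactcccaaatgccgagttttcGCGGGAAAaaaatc
CDC45 promoter, chr22:19479670-19479919, plus strand: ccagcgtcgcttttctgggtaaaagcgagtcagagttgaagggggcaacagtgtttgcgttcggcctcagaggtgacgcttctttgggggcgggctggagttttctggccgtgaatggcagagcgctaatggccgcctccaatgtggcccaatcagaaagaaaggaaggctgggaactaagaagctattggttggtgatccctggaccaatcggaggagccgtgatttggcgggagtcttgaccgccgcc
MCM10 promoter, chr10:13161308-13161557, plus strand: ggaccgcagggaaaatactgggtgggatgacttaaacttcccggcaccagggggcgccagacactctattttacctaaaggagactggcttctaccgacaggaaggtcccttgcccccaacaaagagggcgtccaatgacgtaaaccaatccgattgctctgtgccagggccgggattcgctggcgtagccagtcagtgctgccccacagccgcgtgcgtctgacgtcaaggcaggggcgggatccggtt
DBF4 promoter, chr7:87876243-87876492, plus strand: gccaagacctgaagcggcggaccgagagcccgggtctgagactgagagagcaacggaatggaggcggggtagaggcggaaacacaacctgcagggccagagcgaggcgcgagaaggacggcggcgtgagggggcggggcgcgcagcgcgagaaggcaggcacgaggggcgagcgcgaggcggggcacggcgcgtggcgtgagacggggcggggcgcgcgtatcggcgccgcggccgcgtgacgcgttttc
The core lay at position -39 from the start in TYMS, -35 in CDT1, -14 in UHRF1, and -33 and -20 in E2F1.

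Thymidylate synthase (TYMS, chr18:657653-673578, plus strand) makes the thymidine nucleotide that only DNA uses. In batch 1 it had 76.3 and 65.1 CPM in mock cells and 158 and 164 CPM after IR. Under vehicle it went from 41.3 and 41.9 CPM to 89.7 and 75.3 CPM, and under enzalutamide from 41.1 and 44.5 CPM to 85.2 and 83.8 CPM. Irradiated samples were above their controls in each of the 3 settings with no overlap. The log2 fold change was 1.19 (SE 0.12, adjusted p = 8.57e-05) in batch 1, 0.99 (SE 0.10, adjusted p = 0.000118) under vehicle and 0.98 (SE 0.10, adjusted p = 0.000152) under enzalutamide. With t1 alone it was 1.11 and with t2 alone 1.30, and TYMS kept its call when any single sample was left out.

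Reads over TYMS cannot be assigned to it alone, because the use of strand in counting was not given in the sources used here. ENOSF1 lies on the opposite strand and shares 10593 bases with TYMS, and the antisense RNA TYMSOS shares 639 bases. TYMSOS rose by a log2 fold change of 1.43 in batch 1 (adjusted p = 4.96e-05), 1.16 under vehicle and 0.98 under enzalutamide, each called. Its level went from 102 and 82.8 CPM to 259 and 240 CPM in batch 1. ENOSF1 had a log2 fold change of 0.15 in batch 1 and 0.16 under vehicle, and neither was called. TYMS also has 2 named pseudogenes. Transcription of TYMS and TYMSOS therefore cannot be told apart at their shared end.

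RRM2B, the p53-controlled small subunit of ribonucleotide reductase, is used for DNA repair and mitochondrial DNA outside S phase. It had 30.9 and 31.2 CPM in mock cells and 62.3 and 61.7 CPM after IR in batch 1. In batch 2 the levels were 31.7 and 28.7 CPM with vehicle, 48.8 and 50.9 with vehicle and IR, 29.9 and 27.7 with enzalutamide, and 40.8 and 47.4 with enzalutamide and IR. Irradiated and unirradiated samples did not overlap in any of the 3 settings. The log2 fold change was 1.00 (SE 0.10, adjusted p = 9.53e-05) in batch 1, 0.72 (SE 0.11, adjusted p = 0.00287) under vehicle and 0.61 (SE 0.11, adjusted p = 0.0142) under enzalutamide. With t1 alone it was 0.96 and with t2 alone 1.06. Without vehicle replicate 4 or vehicle and IR replicate 4 the adjusted p under vehicle was 0.0554 and 0.0552, and without enzalutamide and IR replicate 4 the value under enzalutamide was 0.50 (adjusted p = 0.29).

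RRM2, the S phase partner of RRM1, did not pass the test and differed more between replicates than between treatments in batch 2. It had 164 and 174 CPM in mock cells and 179 and 162 CPM after IR. In batch 2, replicate 3 had 244, 320, 292 and 312 CPM and replicate 4 had 212, 218, 213 and 226 CPM, in the order vehicle, vehicle with IR, enzalutamide, enzalutamide with IR. Replicate 3 was thus above replicate 4 in each group. Its log2 fold change over both batches was 0.12 (95% interval -0.10 to 0.33), and the interval of RRM2B was 0.68 to 1.01. RRM1, the large subunit, had log2 fold changes of 0.21 in batch 1 and 0.14 under vehicle, with neither called. In batch 1 RRM1 gave -0.20 with t1 alone, not called, and 0.69 with t2 alone, called (adjusted p = 0.000197).

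TK1, the salvage thymidine kinase, also missed the threshold. It had 166 and 128 CPM in mock cells, 141 and 148 CPM after IR, 152 and 170 CPM with vehicle, and 179 and 161 CPM with vehicle and IR. Those groups overlap in both batches, and the log2 fold change over both batches was 0.02 (95% interval -0.16 to 0.19). In batch 1 TK1 gave 0.32 with t1 alone, not called, and -0.44 with t2 alone, called lower (adjusted p = 0.00935).

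DBF4 (chr7:87876493-87909553, plus strand) lets CDC7 phosphorylate the loaded helicase. It had 70.9 and 76.7 CPM in mock cells and 49.7 and 50.4 CPM after IR in batch 1. In batch 2 it had 115 and 115 CPM with vehicle, 83.6 and 85.7 with vehicle and IR, 113 and 103 with enzalutamide, and 76.0 and 90.2 with enzalutamide and IR. Each irradiated group lay below its control. The log2 fold change was -0.56 (SE 0.10, adjusted p = 0.00791) in batch 1, -0.44 (SE 0.10, adjusted p = 0.0461) under vehicle and -0.38 (SE 0.10, adjusted p = 0.131) under enzalutamide. With t1 alone it was -0.74 and with t2 alone -0.35. DBF4 has 3 named pseudogenes whose reads could be shared with it. Its kinase partner CDC7 was not called, at -0.12 in batch 1, 0.02 under vehicle and -0.13 under enzalutamide. CDC7 had 61.9 and 54.2 CPM in mock cells, 54.5 and 52.1 CPM after IR, 56.2 and 55.2 CPM with vehicle, and 58.8 and 54.1 CPM with vehicle and IR, which overlap in both batches.

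In batch 1, 4 of 47 members were called, 3 higher and 1 lower. Of 25889 genes 2.82% were called, 2% higher and 0.819% lower. GINS4, a subunit of the GINS complex, was the third riser. It had 34.9 and 32.7 CPM in mock cells and 52.1 and 46.4 CPM after IR, a log2 fold change of 0.54 (SE 0.11, adjusted p = 0.0184). GINS4 gave 0.64 with t1 alone and 0.44 with t2 alone. A noncoding RNA, GPAT4-AS1, overlaps 10726 bases of GINS4 and had a log2 fold change of -0.05, not called. At an unadjusted p under 0.05, 8 members (17.0%) passed, where 11.5% of all genes did, and the median of the members was 0.10, against -0.0021 for all genes. Without irradiated replicate 1 only the calls of TYMS and RRM2B were left, and the adjusted p was 0.137 for GINS4 and 0.0563 for DBF4.

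Single t libraries gave other calls in batch 1: 11 members with t1, where 17.3% of 23134 genes were called, and 27 with t2, where 44.7% of 21930 genes were called. ORC2, PRIM2 and RPA1 were called lower with t1 and higher with t2, and GMNN and MCM4 were called higher with t1 and lower with t2. MCM4 gave a log2 fold change of 0.81 (adjusted p = 0.00353) with t1 and -0.48 (adjusted p = 0.00948) with t2. PRIM2 gave -0.51 and 0.78. TYMS, RRM2B, GINS4 and DBF4 were called in the same direction with either set.

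Under vehicle in batch 2, 6 of 47 members were called, 5 higher and 1 lower. Of 28651 genes 1.1% were called, 0.743% higher and 0.353% lower. Without adjustment, 22 members (46.8%) had a p under 0.05, where 3161 of the 28651 genes did. All 6 of MCM2 to MCM7 were among those 22. The median of the members was 0.18, with 44 above 0 and 3 below, against -0.0057 for all genes. TYMS, RRM2B, GINS4 and DBF4 were among the 6 called. The 4 called in batch 1 thus made up 66.7% of those called under vehicle. These 2 comparisons share no sample. CDT1 and E2F1 were the other two. The count fell to 2 without vehicle replicate 3, vehicle and IR replicate 3, or vehicle and IR replicate 4, and to 3 without vehicle replicate 4 or enzalutamide and IR replicate 3.

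E2F1 (chr20:33675477-33686385, minus strand), the transcription factor that turns on many S phase genes, had 33.3 and 37.1 CPM with vehicle and 54.9 and 51.4 CPM with vehicle and IR. It had 34.1 in both mock replicates and 42.2 and 43.4 CPM after IR in batch 1. In batch 2 with enzalutamide it had 39.2 and 43.1 CPM without IR and 52 and 53 CPM with it. The irradiated samples were higher in each setting with no overlap. The log2 fold change was 0.60 (SE 0.10, adjusted p = 0.00673) under vehicle, 0.33 (adjusted p = 0.179) in batch 1 and 0.36 (adjusted p = 0.193) under enzalutamide. In batch 1 E2F1 gave 0.27 with t1 alone, not called, and 0.41 with t2 alone, called (adjusted p = 0.0158).

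CDT1, which brings the helicase to the origin, had 31.4 and 39.9 CPM with vehicle and 51.3 and 54.1 CPM with vehicle and IR. With enzalutamide it had 36.9 and 36.6 CPM without IR and 51.2 and 50.6 CPM with it, and in batch 1 it had 33.5 and 27.9 CPM in mock and 35.7 and 33.1 CPM after IR. The groups overlapped in batch 1 and not in batch 2. The log2 fold change was 0.56 (SE 0.11, adjusted p = 0.028) under vehicle, 0.47 (adjusted p = 0.104) under enzalutamide and 0.16 (adjusted p = 0.71) in batch 1, where t1 alone gave 0.56, called (adjusted p = 0.0343), and t2 alone -0.25, not called. CDT1 was the 1 member with an unadjusted p under 0.05 for the difference of the IR effect between batches, at -0.42 (adjusted p = 0.844).

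Under enzalutamide, 2 of 47 members were called after IR, TYMS and RRM2B, both higher. Of 28651 genes 0.918% were called, 0.625% higher and 0.293% lower. At an unadjusted p under 0.05, 12 members (25.5%) passed, where 9.49% of all genes did. GINS4, with 27.4 and 26.4 CPM before and 37.7 and 34.9 CPM after IR, reached 0.43 (adjusted p = 0.102). The member median was 0.11, and 0.18 under vehicle. Without enzalutamide replicate 3 or 4 the first was 0.17 or 0.05, and without vehicle and IR replicate 3 or 4 the other was 0.12 or 0.26, so the ranges overlap.

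**Figure D2:**
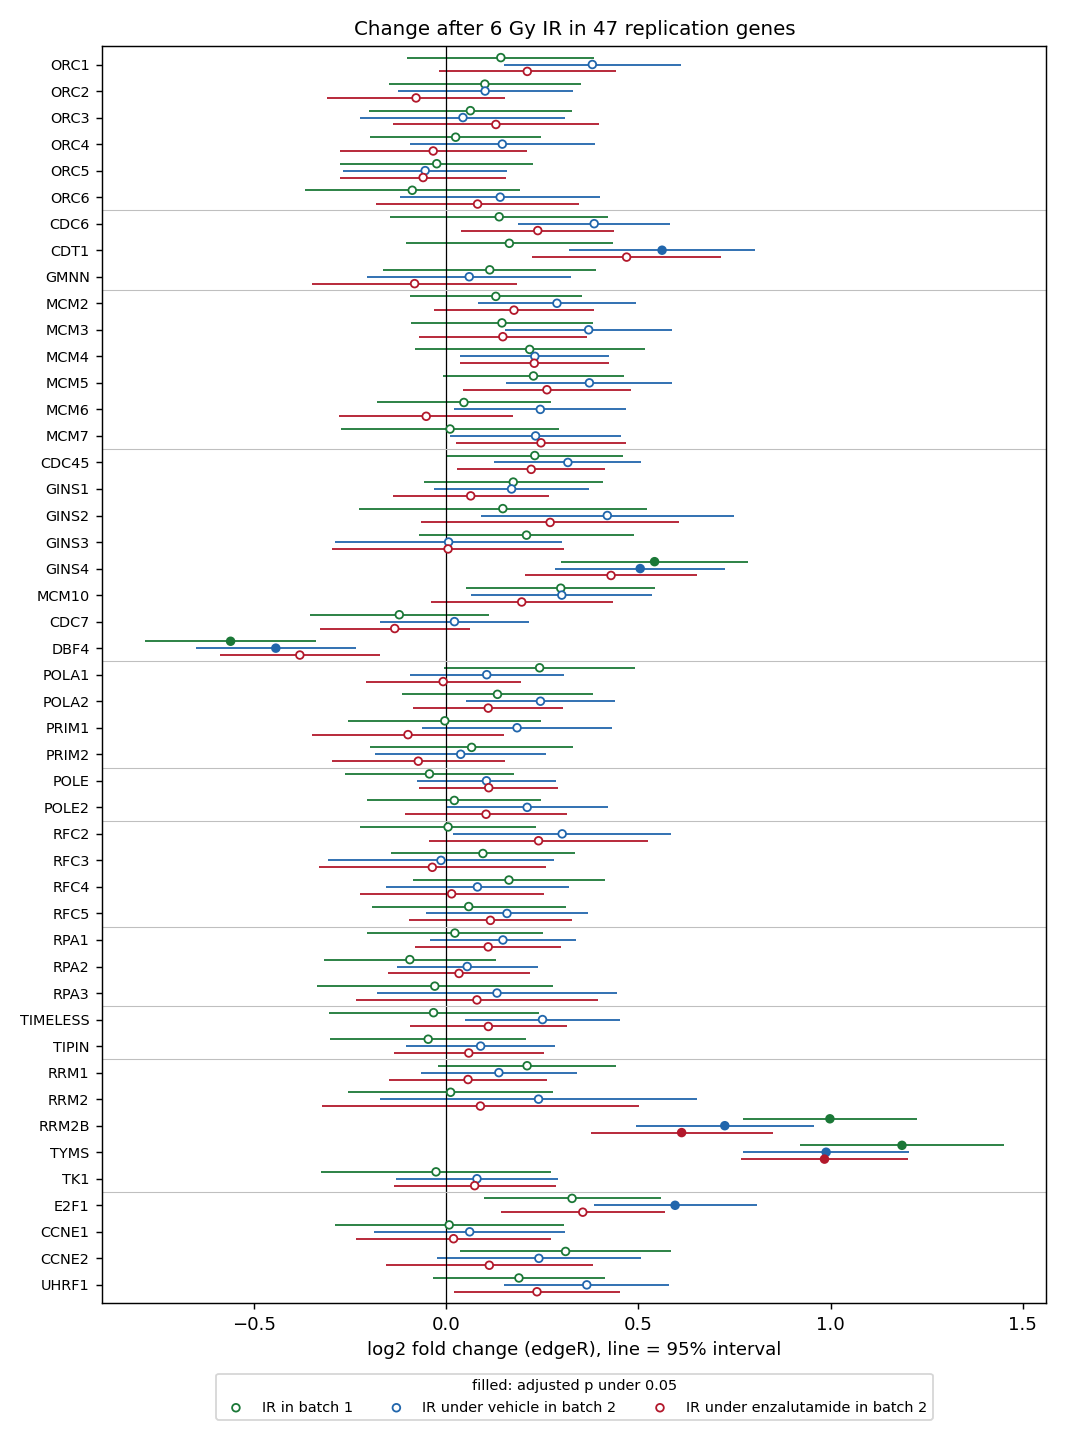
Log2 fold change after 6 Gy IR (x axis) for each of the 47 members (rows, grouped by role), with 95% intervals, in batch 1, under vehicle and under enzalutamide. Filled points passed an adjusted p of 0.05; TYMS and RRM2B are filled in all 3 settings and DBF4 lies left of 0.

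Among licensing genes, CDT1 was the 1 called after IR over both batches. With t2 in place of the sums it was not called. None of the 6 ORC genes was called, with 5 above 0, ORC5 at -0.05 and a median log2 fold change of 0.06. Under enzalutamide 3 of the 6 ORC genes were above 0 and 3 below. ORC1, the subunit that varies through the cell cycle, had 38.4 and 34.6 CPM in mock, 41.8 and 38.7 CPM after IR, 45.2 and 47.6 CPM with vehicle, and 66.5 and 54.3 CPM with vehicle and IR. Its log2 fold change over both batches was 0.26 (adjusted p = 0.106), and in batch 1 ORC1 was called with t2 alone, at 0.37 (adjusted p = 0.023), and not with t1, at -0.06. CDC6, the loading ATPase, had 54.7 and 54.4 CPM with vehicle and 75.6 and 66.8 CPM with vehicle and IR, while in batch 1 the values were 94.4 and 73.0 CPM in mock and 96.4 and 87.7 CPM after IR. CDC6 had a log2 fold change of 0.25 over both batches (adjusted p = 0.131). The inhibitor GMNN had 28.6 and 27.0 CPM with vehicle and 31.8 and 26.1 CPM with vehicle and IR, which overlap.

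Of the 6 helicase genes MCM2 to MCM7, MCM5 was called over both batches, and all 6 had a positive change with a median of 0.21. MCM5 had 55.4 and 48.9 CPM in mock, 63.2 and 58.8 CPM after IR, 51.4 and 59.3 CPM with vehicle, and 76.3 and 67.0 CPM with vehicle and IR. The irradiated samples were above their controls in both batches, and the log2 fold change was 0.29 (SE 0.08, adjusted p = 0.0397). MCM5 was not called over both batches with t1 or with t2 in place of the sums. MCM3 had 54.4 and 55.7 CPM with vehicle and 77.9 and 64.3 CPM with IR, and MCM4 72.2 and 76.6 against 91.4 and 83.1 CPM. MCM2 had 82.1 and 83.1 CPM with vehicle and 109 and 92.8 CPM with IR, MCM6 42.0 and 43.2 against 51.9 and 49.0 CPM, and MCM7 107 and 128 against 132 and 144 CPM. Irradiated and vehicle samples did not overlap in these genes, and none of them was called over both batches. The share of all genes without such overlap was not counted. In batch 1 the mock and irradiated samples of MCM2 (76.5 and 73.8 against 84.4 and 80.0 CPM) and MCM3 (64.5 and 55.3 against 66.7 and 65.7 CPM) did not overlap. Those of MCM4 (107 and 79.5 against 112 and 104 CPM), MCM6 (42.6 and 45.2 against 44.4 and 46.4 CPM) and MCM7 (137 and 110 against 130 and 119 CPM) did, and MCM7 had a log2 fold change of 0.01 there.

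Of the 8 genes that fire origins, GINS4, CDC45 and MCM10 rose over both batches and DBF4 fell. CDC45, which completes the helicase, had 41.9 and 45.4 CPM in mock, 50 and 52.5 CPM after IR, 58.8 and 61.7 CPM with vehicle, and 79.1 and 70.8 CPM with vehicle and IR. MCM10 had 39.4 and 46.2 CPM in mock, 50.8 and 54.5 CPM after IR, 65.4 and 73.0 CPM with vehicle, and 93.4 and 77.1 CPM with vehicle and IR. Neither gene's groups overlapped. Their log2 fold changes were 0.27 (SE 0.07, adjusted p = 0.0418) for CDC45 and 0.29 (SE 0.08, adjusted p = 0.0499) for MCM10. With the t1 libraries in place of the sums, CDC45 gave 0.14 (adjusted p = 0.524) and MCM10 0.12 (adjusted p = 0.592). GINS1, GINS2 and GINS3 were not called.

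UHRF1, which reads newly replicated DNA for maintenance methylation, had 64.8 and 64.3 CPM in mock, 70.8 and 76.3 CPM after IR, 78.9 and 83.1 CPM with vehicle, and 111 and 97.3 CPM with vehicle and IR. Its samples did not overlap, and the log2 fold change over both batches was 0.27 (SE 0.07, adjusted p = 0.0432). It was not called with t1 or t2 in place of the sums (adjusted p = 0.238 and 0.106). Cyclin E1 (CCNE1) had 22 and 28 CPM in mock and 26 and 24.4 CPM after IR, and 21.4 and 24.3 CPM with vehicle against 24.0 and 23.8 CPM with IR. CCNE1 overlapped in both batches. Cyclin E2 (CCNE2) had 55.5 and 45.6 CPM in mock, 68.3 and 57.0 CPM after IR, 37.3 and 34.1 CPM with vehicle, and 44.7 and 39.6 CPM with IR, and its log2 fold change of 0.26 over both batches had an adjusted p of 0.093. In batch 1 CCNE2 gave 0.94 with t1 alone, called (adjusted p = 0.000382), and -0.27 with t2 alone, not called.

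No member was called over both batches among the polymerase alpha-primase genes (4), polymerase epsilon genes (2), clamp loader RFC genes (4), RPA genes (3) and fork protection genes TIMELESS and TIPIN. Their group medians were 0.12, 0.07, 0.10, 0.03 and 0.06. The polymerases copy DNA, RFC loads the sliding clamp, and RPA coats single strands. For 42 of the 47 members the 95% interval over both batches lay within a 1.5-fold change in either direction.

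The calls over both batches depended on some samples. The count was 6 without irradiated replicate 1 of batch 1 or vehicle replicate 4, and 5 without vehicle replicate 3 or vehicle and IR replicate 3. TYMS, RRM2B, GINS4 and DBF4 stayed called over both batches whichever sample was left out. With t1 alone or t2 alone in place of the sums, 7 members were called each time.

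**Figure D3:**
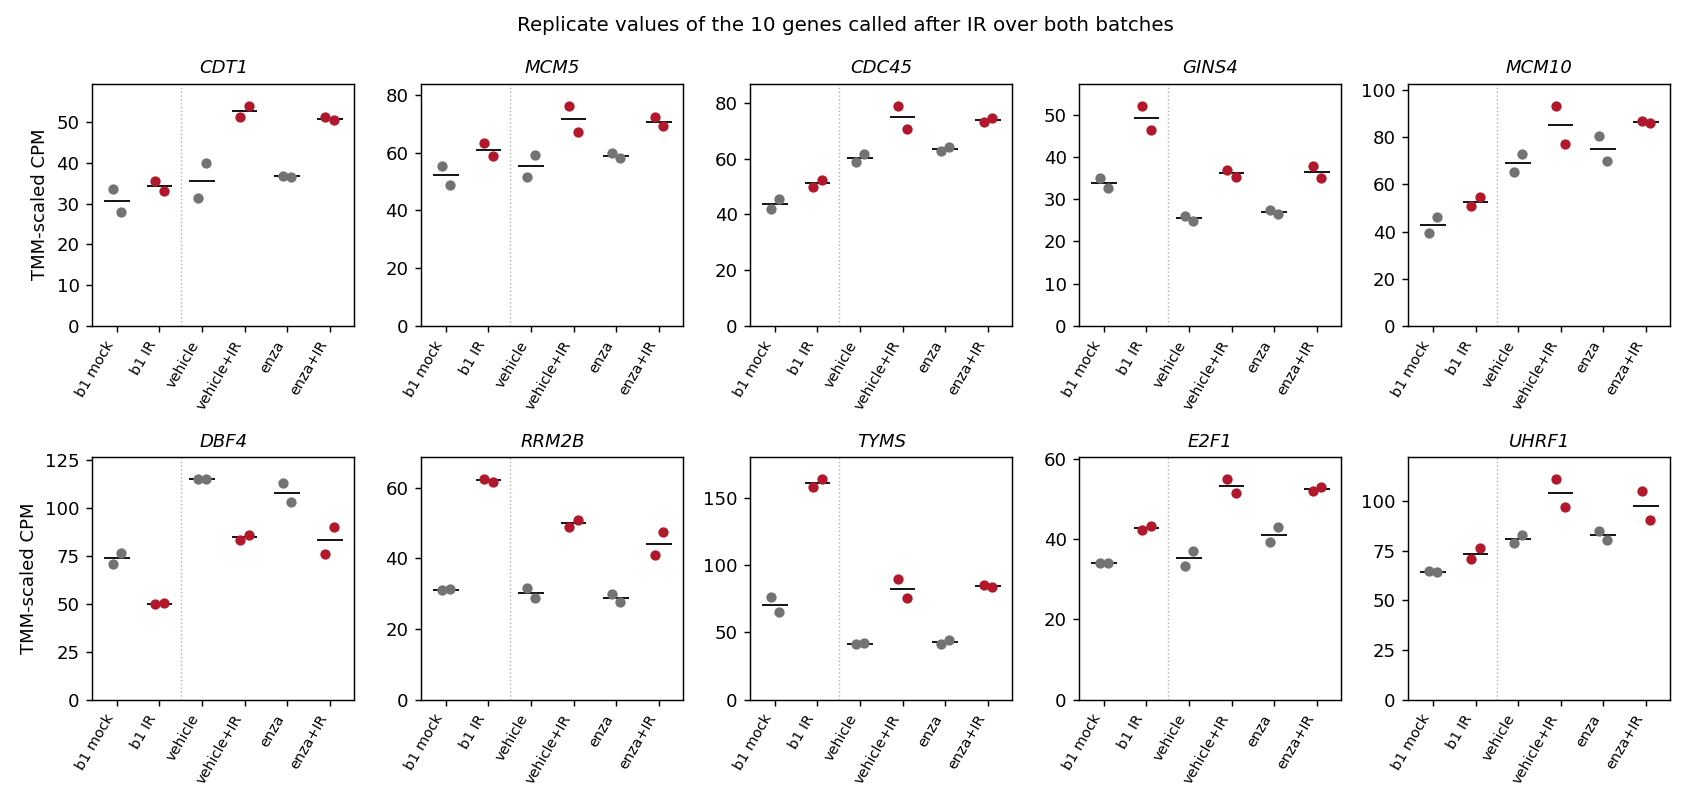
TMM-scaled CPM (y axis, from 0) of the 10 members called after IR over both batches, 1 panel for each gene, with points for replicates, bars for the group mean, grey for samples without IR and red for samples with IR. The dotted line parts batch 1 (b1) from batch 2; TYMS and RRM2B show the widest gaps, and DBF4 is lower with IR in each setting.

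In the main test, the IR effect on a single member was not shown to differ between batches. No member was called for that difference, where 0.106% of 29195 genes were called (0.0548% higher and 0.0514% lower), and 1 member had an unadjusted p under 0.05. With t2 alone 13 members were called for it, 6 higher and 7 lower, and with t1 alone 0. The difference, batch 1 minus batch 2, was below 0 for 35 of 47 members and above 0 for 12. The median difference was -0.15, against -0.01 over all genes. Over fits that each lacked 1 sample that median ran from -0.23 to -0.07. The members share their samples, so this count of signs is a description and not a test. Replicates within a batch also differed in the size of the response. The median log2 ratio of irradiated to vehicle CPM over the members was 0.27 in replicate 3, with 45 members higher, and 0.08 in replicate 4, with 37 higher.

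No member passed the main test for enzalutamide. For enzalutamide without IR, 0 of 47 members were called, where 0.0105% of 28651 genes were called, all of them lower. At an unadjusted p under 0.05, 2 members (4.26%) passed, where 2.56% of all genes did. For enzalutamide with IR 0 members and 0.0105% of genes were called, and 1 member (2.13%) and 3% of genes passed unadjusted. Averaged over IR 0 members and 0.0628% of genes were called, and 1 member (2.13%) and 6.21% of genes passed unadjusted. The DESeq2 test also called 0 members with and without IR and 1 for the average. The 95% intervals lay within a 1.5-fold change in either direction for 47 of 47 members in each of these comparisons. The members' median was 0.06 without IR (37 above 0) and -0.03 with IR (15 above 0), against 0.0054 and -0.0018 over all genes. Both medians depended on the replicate. Without IR 41 members were higher with enzalutamide in replicate 3 (median log2 ratio 0.13) and 23 in replicate 4 (-0.02). The median without IR was 0.02 without enzalutamide replicate 3, 0.104 without vehicle replicate 4 and 0.105 without enzalutamide replicate 4. The median with IR turned to 0.04 without vehicle and IR replicate 3 and was -0.11 without vehicle and IR replicate 4.

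ORC5, a subunit of the origin recognition complex, was the member with the smallest p for enzalutamide. It had 196 and 215 CPM with vehicle, 173 and 160 CPM with enzalutamide, 195 and 201 CPM with vehicle and IR, and 146 and 174 CPM with enzalutamide and IR. Samples with enzalutamide were lower with no overlap, with and without IR. The log2 fold change averaged over IR was -0.31 (SE 0.06, adjusted p = 0.198), and it passed with DESeq2 (adjusted p = 0.0162) and without the filter on low counts (adjusted p = 0.000897). E2F1 was the other member with an unadjusted p under 0.05 without IR, at 0.22 (adjusted p = 1).

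The effect of IR was not shown to depend on enzalutamide. For the interaction 0 of 47 members were called, where 0% of 28651 genes were called, and 0 members had an unadjusted p under 0.05 by edgeR; DESeq2 also called 0 members. The interaction was below 0 for 43 of 47 members, with a median of -0.10 against -0.009 over all genes. TYMS had an interaction of -0.0043 (95% interval -0.31 to 0.30) and RRM2B of -0.11 (-0.44 to 0.22). The replicates did not share that direction. Computed within a replicate number from log2 CPM, the median interaction was -0.24 in replicate 3, with 47 of 47 members below 0, and 0.04 in replicate 4, with 33 above 0. Over fits that each lacked 1 sample it ran from -0.16 to -0.03.

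**Figure D4:**
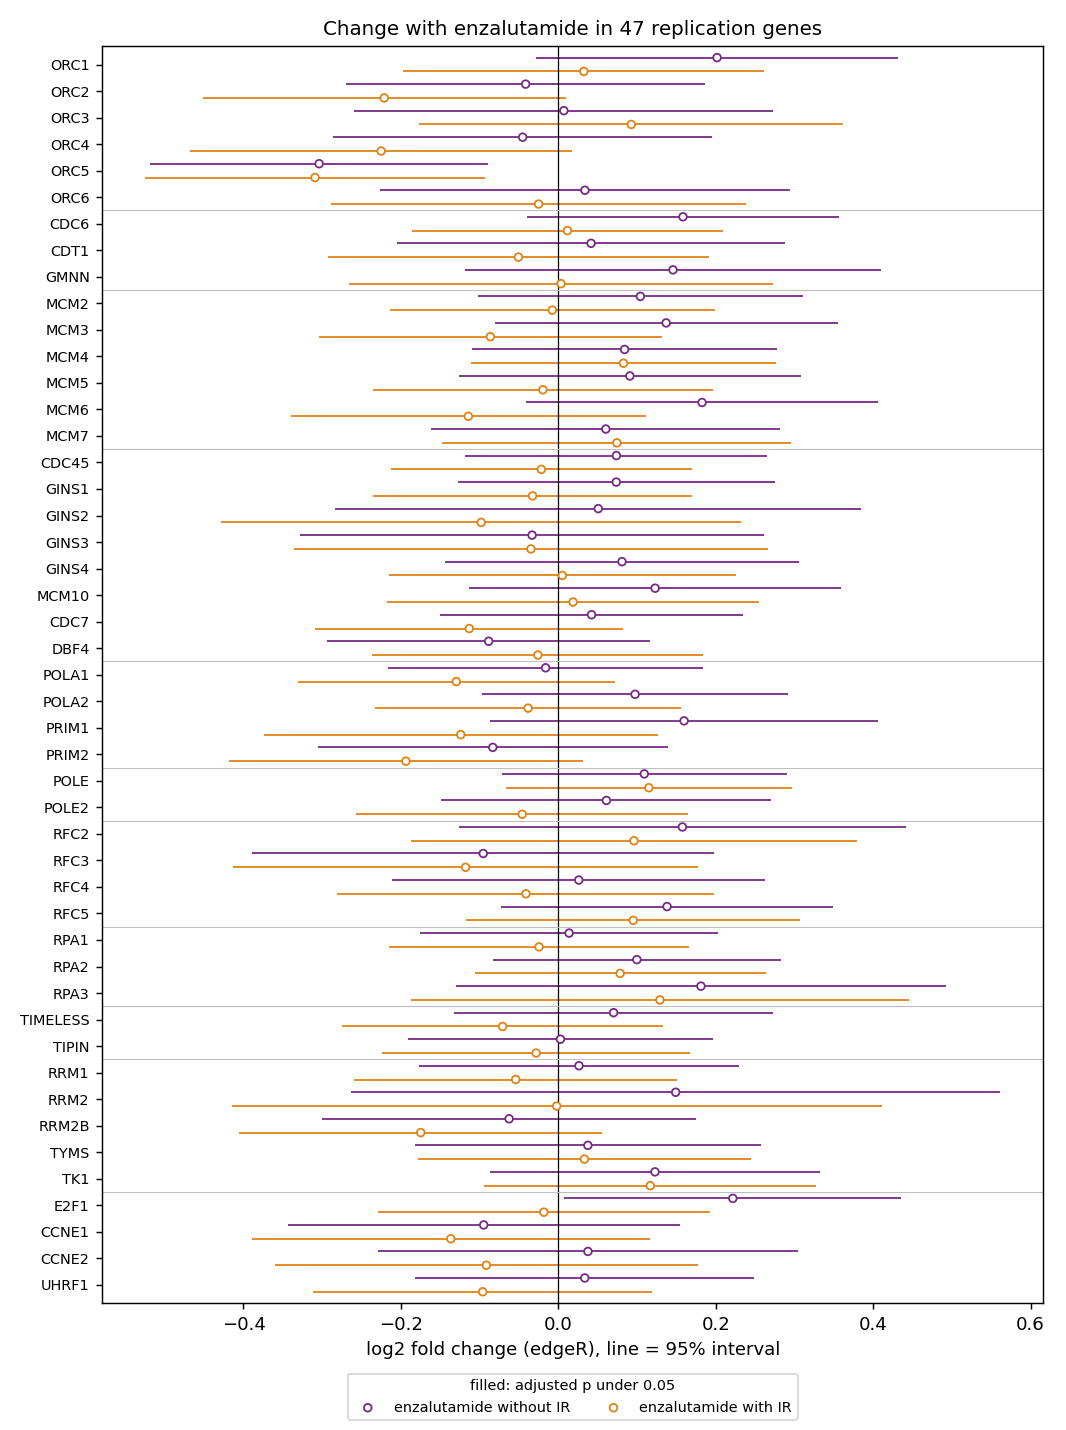
Log2 fold change with 10 µM enzalutamide (x axis) for each of the 47 members (rows), without and with IR, with 95% intervals. No point is filled, since no member passed an adjusted p of 0.05, and ORC5 lies at -0.30 without and -0.31 with IR.

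Per kb of gene span, the vehicle levels were highest for MCM7 (13.6 CPM per kb), TK1 (12.3) and CDT1 (6.52) and lowest for RPA3 (0.154), PRIM2 (0.223) and ORC3 (0.47). MCM7 had 118 ± 14.7 CPM over 8.67 kb and TK1 161 ± 13 CPM over 13.126 kb (SD, n = 2). Divided by these spans the replicates of the 2 genes overlap, so their order per kb is within the replicate spread. Across members, the log2 fold change after IR and the log2 gene span had a Pearson correlation of -0.117 in batch 1. It was -0.314 under vehicle and -0.324 under enzalutamide. For the change with enzalutamide it was -0.325 without IR and -0.309 with IR. A part of gene span in the calls was not tested. In total, 23 of the 47 members overlap another RefSeq gene. UMAD1 covers 94.84% of the span of RPA3. Since the use of strand in counting was not given, the level of RPA3 is uncertain.

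Other genes of the same pathways were read from lists. Of 27 further fork and lagging strand genes, 2 rose and 1 fell over both batches, with a median of 0.11. PCNA, the sliding clamp and a known p53 target, rose by 0.84 (adjusted p = 9.76e-06), LIG1, which seals the lagging strand, rose by 0.92 (adjusted p = 1.84e-08), and the topoisomerase TOP2A fell by 1.19 on the log2 scale. LIG1 went from 34.5 and 32.7 CPM to 67.2 and 63.7 CPM in batch 1 and from 42.2 and 44.7 CPM to 83 and 79.6 CPM under vehicle. Of 19 further origin genes, RECQL4 (0.32) and DTL (0.31) rose, and TICRR (-0.46), FBXO5 (-0.37) and DBF4B (-0.54), another activator of CDC7, fell. Of 21 further nucleotide genes, NME1 (0.41) and IMPDH2 (0.35) rose and none fell. Of 25 further G1/S regulators, E2F7 (0.90), RBL2 (0.43) and MYBL2 (0.35) rose and E2F8 (-0.36), CCNA2 (-0.42), CDKN1B (-0.49) and CDKN2C (-0.71) fell.

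For scale, 19 of 20 listed p53 targets rose over both batches with a median of 1.87, and 19 of 20 listed mitotic genes fell with a median of -1.12. The member median of 0.11 lay between them, and their part in the members' values was not tested.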

How the data were processed

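PRO-seq was measured in 16 LNCaP libraries in 6 groups. The values the authors deposited, in a table for each batch, are unnormalized counts by Ensembl gene, judging by their whole numbers and unequal totals. Per the submitters' processing notes, cutadapt 1.8.1, Bowtie2 2.4.4 and SAMtools 1.9 were used with build hg38; the counter, its use of strand and duplicate removal are not given in the sources used here.

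Counts of t1 and t2 under 1 replicate number were summed, which left 12 samples. Each comparison was fitted over all genes with edgeR 4.0.16 in R 4.3.3 (TMM factors, filterByExpr with a count minimum of 10, glmQLFit, glmQLFTest, two-sided) and adjusted by the Benjamini-Hochberg method at 0.05. Batch 2 was 1 model of IR, enzalutamide and their interaction over all 4 groups; the average over IR was fitted with the interaction left out, and the fits over both batches left out enzalutamide samples. Standard errors (SE) came from the fold change and its F statistic, and intervals are 95%. Precision follows the depth: the lowest member count in a sample was 103. The steps were tested on simulated data, where the share of false calls was above the nominal 0.05 in each comparison, so a call close to the threshold is less certain than its adjusted p.

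Alternatives were the replicate number as a block, RLE factors, total counts, no filter, DESeq2 1.42.0, t1 or t2 alone, only the groups compared, and each sample left out.

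The members and the lists, tests and alternatives were chosen with earlier results of these data known. All members could be named, and genes of other lists where called; values per sample are given for called members and a panel of MCM2 to MCM7, CDC6, CDT1, GMNN, ORC1, CDC45, RRM2, RRM2B, TYMS, TK1, E2F1, CCNE1, CCNE2 and UHRF1. The genes overlapping TYMS, GINS4 and UHRF1 were added after seeing the data. Gene spans and promoters came from RefSeq (GRCh38.p14).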

Additional observations from a re-analysis of the deposited data

How the results depend on the processing

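Groups share replicate numbers, but no label ties a number to a culture or day. Deviations of same-numbered samples correlated across genes at 0.245 in batch 1 and 0.162 to 0.333 in batch 2. With the replicate block 8 members were called for IR in batch 1 (adding MCM10, POLA1, E2F1 and CCNE2), 16 under vehicle (adding ORC1, CDC6, MCM2, MCM3, MCM5, CDC45, GINS2, MCM10, RFC2 and UHRF1), 6 under enzalutamide (adding CDT1, GINS4, E2F1 and DBF4) and 14 over both batches (adding CDC6, MCM3, MCM4 and CCNE2), against 4, 6, 2 and 10. With t1 alone 11 and with t2 alone 27 were called for IR in batch 1, and 13 with t2 alone for the difference between batches, against 0. For enzalutamide averaged over IR, ORC5 was the 1 member called without the filter, with DESeq2 and with the block, against 0. Over fits that each lacked 1 sample, the count ran from 2 to 6 in batch 1, 2 to 7 under vehicle, 1 to 2 under enzalutamide and 5 to 12 over both batches, and was 0 for the other comparisons. No member changed its sign under these settings in a comparison where it was called with the summed libraries. In batch 1, where CDT1 was not called, its change was above 0 with the sums and below 0 with t2 alone. GMNN, MCM4, ORC2, PRIM2 and RPA1, not called with the sums, were called in opposite directions there with t1 and t2.

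TYMS and RRM2B passed under each scaling, filter and tool tried. GINS4 in batch 1 had an adjusted p of 0.0577 with DESeq2, and 0.0511 under vehicle with total counts. DBF4 under vehicle had 0.0563 with RLE factors. CDT1 had 0.05 under vehicle and 0.0506 over both batches with total counts.

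Counts over all genes also moved. The block called 2332 genes in batch 1, 1315 under vehicle, 951 under enzalutamide, 1954 over both batches, 96 for the difference, 55 for enzalutamide without IR, 55 with IR, 272 for its average and 1 for the interaction, against 731, 314, 263, 1182, 31, 3, 3, 18 and 0. Without the filter the counts were 1157, 624, 556, 119 for the difference, 74, 64, 230 and 32, with no such move over both batches. DESeq2 called 13 for enzalutamide without IR, 7 with IR and 54 on average, and over both batches t2 alone called 657. For IR in batch 1, t1 alone called 3995 and t2 alone 9800; for the difference they called 452 and 5646. Over fits that each lacked 1 sample the counts ran from 587 to 1509 in batch 1, 161 to 511 under vehicle, 139 to 434 under enzalutamide, 2 to 10 for enzalutamide without IR, 1 to 6 with IR, 7 to 36 on average and 0 to 4 for the interaction. The cause of these moves was not tested. The widest 95% half-interval of a member was 0.413 on the log2 scale for IR or enzalutamide in batch 2, 0.584 for their interaction and 0.375 for IR in batch 1.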
